A study of Mus musculus with 18 samples.

Results

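The RNA of 10 genes of T cell costimulation was followed through immune cells sorted from the livers of tumour-bearing mice. The 10 genes, of 48440 gene identifiers in the count table, were chosen by name from the TNF receptor superfamily and the CD28 family, with no threshold on measured values. They comprise 6 TNF receptors (Tnfrsf9, Tnfrsf4, Tnfrsf18, Tnfrsf1b, Cd27 and Tnfrsf25), the immunoglobulin family receptors Cd28 and Icos, the ligand Cd40lg and its receptor Cd40, itself a TNF receptor. The mice were wild-type C57BL/6J animals bought at 7 weeks of age, and every group carried liver tumours raised by hydrodynamic tail vein injection of Ras and Myc. Treated mice were given 4 mg/kg of the double-stranded RNA mimic poly(I:C) and 200 µg of an antibody against PD-L1 every other day for 6 doses, and the other mice were untreated. The dosing notes also name an antibody against VEGF-A, which the treatment label of these libraries does not. CD45+ leukocytes were sorted into CD3+CD8+, CD3+CD8- and CD3-CD8- fractions, with 3 treated and 3 untreated libraries of each. The labels do not say whether libraries of a group came from separate animals, so p-values measure only the spread between these libraries, which may be partly technical.

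T cells need a second signal besides their antigen receptor, and these receptors deliver it. CD28 binds CD80 and CD86 on antigen-presenting cells and acts through PI3-kinase and the kinase PKC-theta, and its relative ICOS binds ICOS ligand and is prominent on follicular helper and regulatory T cells. The TNF receptors are bound by trimeric ligands, recruit TRAF adaptors and switch on NF-kB, which favours survival of the responding cell. Tnfrsf9 encodes 4-1BB (CD137), Tnfrsf4 encodes OX40, Tnfrsf18 encodes GITR, Tnfrsf1b encodes TNF receptor type II, Cd27 the receptor of CD70, and Tnfrsf25 encodes death receptor DR3. CD40 ligand runs the other way: activated CD4 T cells display it and CD40 on B cells, dendritic cells and macrophages receives it.

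Library totals ran from 1829155 to 28233682 counts. In 3 libraries, untreated CD3+CD8+ replicates 1 and 18 and treated CD3+CD8- replicate 2, 54.374% to 66.8% of counts fell on 7 loci derived from ribosomal RNA, against 0.293% to 1.951% in the other 15. The gene Lars2 took a further 29.371%, 12.544% and 29.262% of those 3 libraries in that order, against at most 0.614% in the others. That left 639275, 495770 and 1690907 counts on all other genes. Levels are CPM, counts scaled to a common library size, after TMM scaling over all 18 libraries, which also lessens that difference, and a count of 0 allowed up to 0.074 to 5.39 CPM depending on the library (3 counts, counting error only). The labelled fractions were checked with their markers. Cd8a averaged 1256 ± 162 CPM (SD, n = 3) in treated and 620.3 ± 345 CPM in untreated CD3+CD8+ cells, and Cd4 averaged 773.8 ± 349 and 268.0 ± 160 CPM in treated and untreated CD3+CD8- cells. Cd8a reached 628.2 CPM in untreated CD3+CD8- replicate 6, but 4.33 and 6.802 CPM in untreated CD3+CD8- replicates 5 and 18. The fraction labelled CD3-CD8- was not free of T cell RNA. Its mean over the CD3 chains Cd3e, Cd3d and Cd3g was 802.6 ± 159 CPM in treated and 201.1 ± 97.9 CPM in untreated mice, and its Cd8a 827.7 ± 252 and 182.2 ± 118 CPM, beside 534.6 ± 97.8 and 574.2 ± 48.3 CPM of the B cell gene Ms4a1. The CD3 chains averaged 752.3 and 476.6 CPM in treated CD3+CD8+ and CD3+CD8- cells, and 364.7 and 314.1 CPM in untreated ones. In treated mice the CD3-CD8- fraction thus held as much CD3 chain RNA as the T cell fractions. Contrasts against it do not set T cells against cells free of T cell RNA. The 6 neutrophil markers averaged a summed 17250 and 6926 CPM in treated and untreated CD3+CD8- cells, against 7256 and 331.7 CPM in CD3-CD8- cells.

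The most abundant members per transcript length were Cd27, Tnfrsf1b, Cd28 and Tnfrsf9 in treated CD3+CD8+ cells. On the deposited FPKM scale, which corrects for length and so allows genes to be compared, these averaged 77.56 ± 32.6, 50.7 ± 13.0, 48.36 ± 20.5 and 35.04 ± 11.5 there (SD, n = 3). Icos and Tnfrsf18 followed at 15.86 ± 4.42 and 15.3 ± 13.3 FPKM, and Tnfrsf4, Tnfrsf25, Cd40lg and Cd40 were all below 1.70 FPKM. Neighbours in that order from Cd27 to Tnfrsf9 lay within 1 SD of each other, as did Icos and Tnfrsf18. In treated CD3-CD8- cells the order was Cd27 (55.96 ± 29.5 FPKM), Tnfrsf1b (55.29 ± 9.98 FPKM), Tnfrsf9 (37.3 ± 2.37 FPKM), Cd28 (24.86 ± 9.78 FPKM), Tnfrsf18 (16.84 ± 4.74 FPKM) and Icos (13.41 ± 2.98 FPKM). In untreated CD3-CD8- cells Tnfrsf18 stood first at 45.57 ± 17.5 FPKM, with Tnfrsf1b at 38.55 ± 8.41 and Cd40 at 36.56 ± 9.23 FPKM, which overlapped it. CD3+CD8- cells carried Tnfrsf1b, Cd28, Cd27 and Icos highest in treated mice, at 49.02, 41.16, 35.21 and 46.46 FPKM with SDs of 27.3 to 55.8, so their order was not resolved. Cd40lg and Tnfrsf4, near 0 FPKM in CD3+CD8+ cells, reached 28.43 ± 23.2 and 20.38 ± 19.6 FPKM there. FPKM was not corrected for the ribosomal counts: in untreated CD3+CD8+ cells Tnfrsf1b ran from 2.056 to 27.72 FPKM, lowest in the libraries rich in them, but from 66.48 to 97.42 CPM. Levels compared between groups below are in CPM, and FPKM serves there as a named alternative test.

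**Figure D1:**
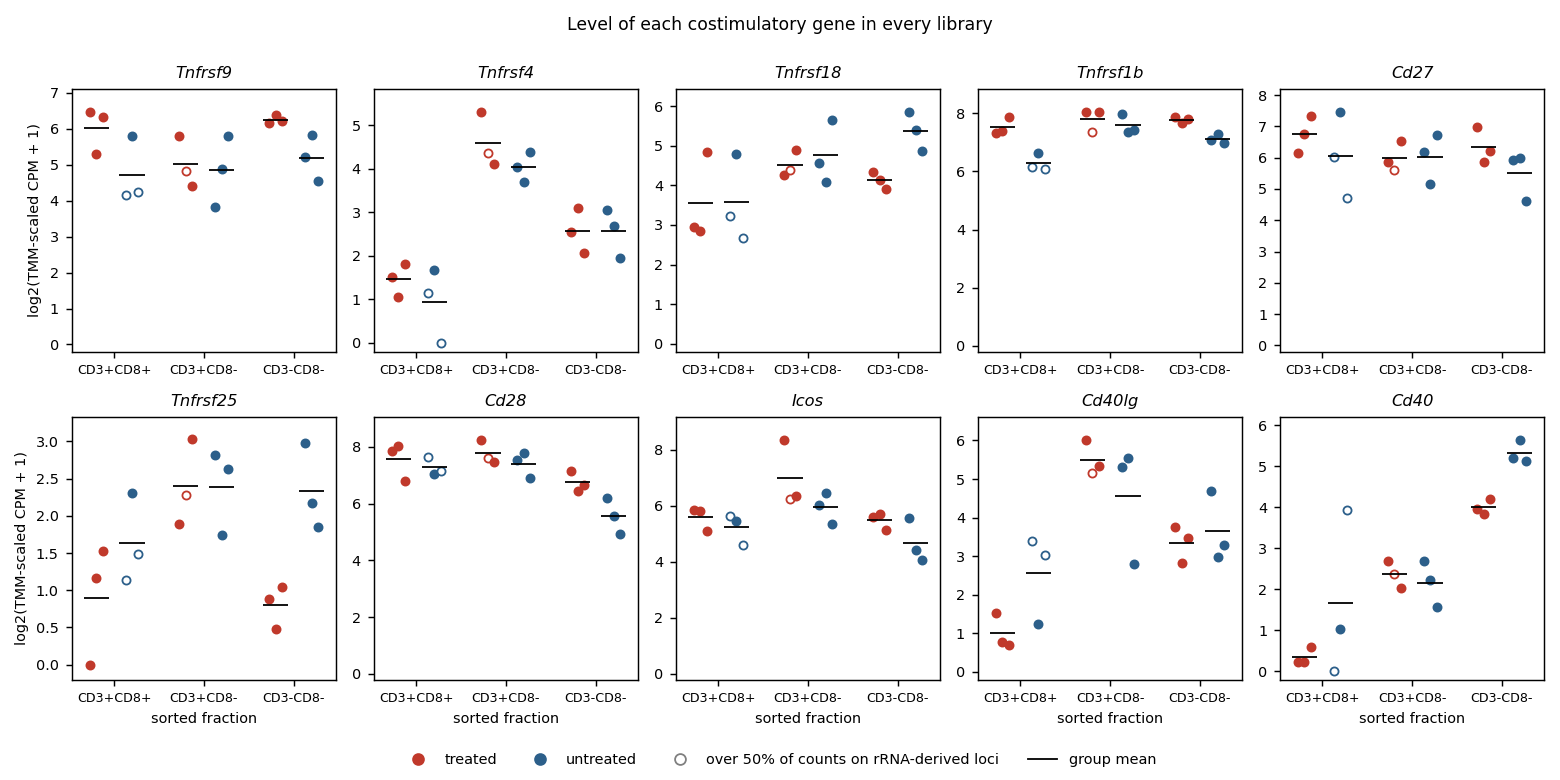
CPM of each member gene (log axis, CPM + 1) in the 18 libraries, 1 panel per gene, with treated left of untreated within each sorted fraction; points are libraries and bars the group mean. Tnfrsf4 and Cd40lg stand highest in the CD3+CD8- fraction and Cd40 in the CD3-CD8- fraction, where its treated libraries (13.22 to 17.43 CPM) lie below its untreated ones (33.93 to 48.93 CPM).

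Of the 10 genes, those of CD40 ligand, OX40 and CD40 had the largest differences between the T cell fractions in treated mice. The order of OX40 and CD40 was not resolved. There Tnfrsf4 stood at 1.855, 1.071 and 2.498 CPM in CD3+CD8+ replicates 11, 2 and 19, against 38.46, 19.41 and 16.11 CPM in CD3+CD8- replicates 11, 2 and 19. Cd40lg stood at 1.855, 0.7138 and 0.6153 CPM in the same CD3+CD8+ libraries, against 63.61, 34.61 and 39.51 CPM in the CD3+CD8- ones. Every CD3+CD8- library was above every CD3+CD8+ library for both genes, and their log2 differences were -3.73 (SE 0.51, adjusted p 0.000842) and -5.59 (SE 0.84, adjusted p 0.0011; edgeR quasi-likelihood test, two-sided, Benjamini-Hochberg over all 13181 genes, called below 0.05). Cd40 was the third member called, at 0.1687, 0.1784 and 0.5067 CPM in CD3+CD8+ against 5.424, 4.205 and 3.056 CPM in CD3+CD8- cells (log2 -3.52, SE 0.78, adjusted p 0.0115). The CD3+CD8+ values rested on 11, 6 and 69 counts for Tnfrsf4, 11, 4 and 17 for Cd40lg and 1, 1 and 14 for Cd40. Cd40lg and Cd40 were too low in CD3+CD8+ cells for a test of treatment and entered this fit through the other fractions. The size of their log2 differences is therefore uncertain. The 3 of 10 members called compare with 5.96% of all genes. Cd40lg and Cd40 entered through fractions where they are higher, so this count is not read as a result about the members. The median member stood at -1.23 and the median gene at 0.05. Icos, at 48.32 ± 13.2 CPM in CD3+CD8+ against 159.1 ± 141 CPM in CD3+CD8- cells, missed the threshold (log2 -1.74, adjusted p 0.0521). Foxp3, the regulatory T cell factor, averaged 0.3691 ± 0.339 CPM in CD3+CD8+ and 11.7 ± 5.44 CPM in CD3+CD8- cells. The 6 neutrophil markers summed to 78.87 to 646.3 CPM in treated CD3+CD8+ and 10140 to 31130 CPM in treated CD3+CD8- libraries. All 6 were called higher in CD3+CD8- cells. How far regulatory or helper T cells, or other cells of the fraction, carry the OX40 and CD40 ligand RNA was not tested. The Tnfrsf4 and Cd40lg calls held in all 6 fits that left out 1 library, and the Cd40 call in 4 of them, lost without CD3+CD8+ replicate 11 or 2.

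The same contrast in untreated mice called Tnfrsf4 and Tnfrsf1b. Tnfrsf4 stood at 1.198, 2.179 and 0 CPM (1, 21 and 0 counts) in CD3+CD8+ replicates 1, 5 and 18 against 15.5, 12.03 and 19.86 CPM in CD3+CD8- replicates 5, 18 and 6 (log2 -3.21, SE 0.61, adjusted p 0.0201). Tnfrsf1b stood at 70.67, 97.42 and 66.48 CPM in the CD3+CD8+ libraries against 252.2, 164.5 and 172.7 CPM in the CD3+CD8- ones (log2 -1.33, SE 0.25, adjusted p 0.0198). Neither gene's groups overlapped, and 2 of 10 members compare with 1.58% of all genes. Both calls were lost when untreated CD3+CD8+ replicate 1 was left out, when both of the ribosomal-rich libraries were left out (log2 -2.85 and -1.02, with 1 untreated CD3+CD8+ library left that was assumed to vary like the other groups), and when the 6 compared libraries were fitted alone; the Tnfrsf1b call was also lost without CD3+CD8- replicate 5. Cd40lg, at 9.583, 1.349 and 7.187 CPM in CD3+CD8+ against 38.85, 45.52 and 5.957 CPM in CD3+CD8- cells, overlapped and was not called (log2 -2.86, adjusted p 0.122). Its CD3+CD8+ values rested on 8, 13 and 4 counts. Its low CD3+CD8- value is that of replicate 6, the library with Cd8a, and without it the difference was -3.42 (adjusted p 0.0242).

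CD40 RNA was highest in the CD3-CD8- fraction, as were the summed B cell markers (on average 1764 CPM treated and 3173 CPM untreated). In treated mice it stood at 0.1687, 0.1784 and 0.5067 CPM in CD3+CD8+ replicates 11, 2 and 19, against 14.58, 13.22 and 17.43 CPM in CD3-CD8- replicates 2, 11 and 19 (log2 -5.27, SE 0.77, adjusted p 0.00188). Cd40lg was also lower in CD3+CD8+ than in CD3-CD8- cells, where it stood at 12.58, 6.008 and 10.02 CPM (log2 -3.23, SE 0.79, adjusted p 0.0248). The CD3+CD8+ values of both genes are those on few counts given above. These 2 of 10 members compare with 4.94% of all genes, with a median member of -0.12 against 0.04 for the median gene. Both genes entered the fit through the other fractions, so this count is likewise not read as a result about the members. The Cd40 call held in all 6 leave-outs and the Cd40lg call in 2, lost without CD3+CD8+ replicate 2 or 19 or CD3-CD8- replicate 2 or 19. In untreated mice Cd40 stood at 0, 1.038 and 14.37 CPM in CD3+CD8+ replicates 1, 5 and 18, against 35.72, 48.93 and 33.93 CPM in CD3-CD8- replicates 1, 5 and 18 (log2 -3.73, SE 0.80, adjusted p 0.0193). The 14.37 CPM of CD3+CD8+ replicate 18 rested on few counts in a library that also held 334.2 CPM of Ms4a1, and the part of B cell RNA in it was not tested. That call was lost in 4 of 6 leave-outs (CD3+CD8+ replicates 1 or 5, CD3-CD8- replicates 5 or 18) and in a fit of those 6 libraries alone.

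CD28 RNA was higher in both T cell fractions than in CD3-CD8- cells of untreated mice. It stood at 198.8, 130.1 and 142.0 CPM in untreated CD3+CD8+ replicates 1, 5 and 18, against 71.58, 45.87 and 29.41 CPM in CD3-CD8- replicates 1, 5 and 18 (log2 1.77, SE 0.37, adjusted p 0.0173). With Cd40, which entered this fit through the other fractions, this made 2 of 10 members called, beside 4.57% of all genes. The Cd28 call was lost without CD3+CD8+ replicate 1, without CD3-CD8- replicate 5 or 18, and without both ribosomal-rich libraries (log2 1.45, again with 1 untreated CD3+CD8+ library and the spread of the other groups). CD3+CD8- cells, at 182.5, 220.5 and 118.7 CPM in untreated replicates 5, 18 and 6, were likewise above CD3-CD8- cells (log2 1.92, SE 0.37, adjusted p 0.0108), with no overlap. Cd40 was lower in CD3+CD8- cells, at 5.469, 3.662 and 1.986 CPM (log2 -3.25, SE 0.65, adjusted p 0.0126), and these 2 of 10 members compare with 3.16% of all genes. The call of Cd28 was lost without CD3-CD8- replicate 5 or 18, and that of Cd40 without CD3+CD8- replicate 18 or CD3-CD8- replicate 5. In treated mice CD3+CD8- against CD3-CD8- cells gave 1 call of 10, Tnfrsf4, beside 1.23% of all genes. It stood at 38.46, 19.41 and 16.11 CPM in CD3+CD8- replicates 11, 2 and 19 against 4.846, 7.61 and 3.175 CPM in CD3-CD8- replicates 2, 11 and 19 (log2 2.37, SE 0.48, adjusted p 0.0207), and held in 2 of 6 leave-outs, lost without replicate 11 or 2 of the CD3+CD8- or replicate 2 or 19 of the CD3-CD8- libraries. Cd28 there averaged 223.2 ± 67.4 CPM in CD3+CD8- against 108.6 ± 29.6 CPM in CD3-CD8- cells (log2 1.16, adjusted p 0.128).

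**Figure D2:**
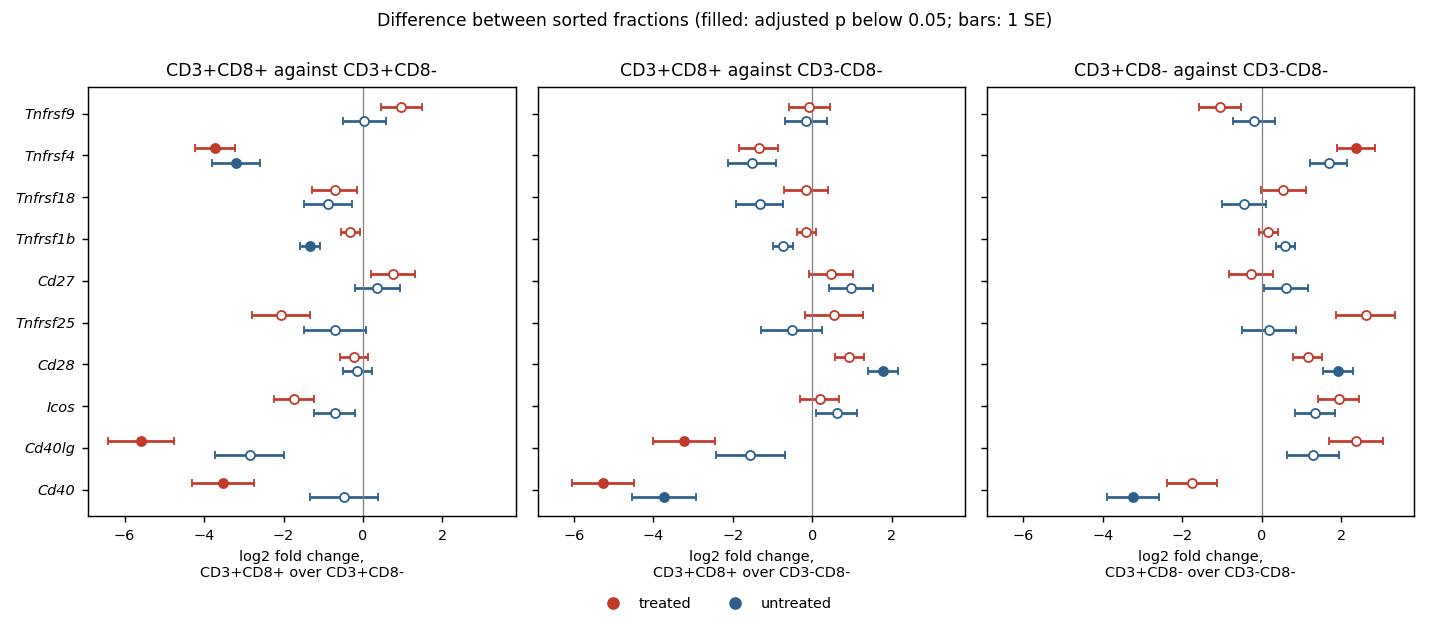
Log2 differences (points) with SE (bars) of the 10 members between sorted fractions in treated and untreated mice, from the fit of all 18 libraries; filled points passed an adjusted p of 0.05. The largest differences drawn are those of treated mice for Cd40lg in CD3+CD8+ against CD3+CD8- cells (-5.59) and for Cd40 in CD3+CD8+ against CD3-CD8- cells (-5.27). Both rest on few counts in CD3+CD8+ cells and their order is not resolved. Cd40 is below 0 wherever a T cell fraction is set against CD3-CD8- cells.

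In CD3-CD8- cells 6 of the 10 members differed between treated and untreated mice. Tnfrsf9, Tnfrsf1b and Cd28 rose, and Tnfrsf18, Tnfrsf25 and Cd40 fell. This fraction moved broadly: 3522 of 13781 genes passed, 25.6%, of which 1407 rose (10.2%) and 2115 fell (15.3%), so 3 members up and 3 down stand against that background. The median member stood at 0.24 and the median gene at -0.06 on the log2 scale. The smallest adjusted p among the members was that of Cd40 (0.00826). In bulk RNA of a sorted fraction, fewer cells of a type and less RNA per cell cannot be told apart.

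Among the receptors that rose, Tnfrsf9 stood at 70.48, 82.91 and 73.37 CPM in treated CD3-CD8- replicates 2, 11 and 19, against 36.15, 55.79 and 22.2 CPM in untreated replicates 1, 5 and 18. Its log2 fold change was 0.93 (SE 0.28, adjusted p 0.0453). Tnfrsf1b stood at 231.8, 202.9 and 220.6 CPM in the treated libraries, against 135.6, 154.7 and 126.4 CPM in the untreated ones (log2 0.58, SE 0.14, adjusted p 0.0267). Treated libraries were above untreated ones without overlap for both, and the untreated libraries spread more for Tnfrsf9. Cd28 stood at 141.9, 84.91 and 99.1 CPM treated, against 71.58, 45.87 and 29.41 CPM untreated, again without overlap (log2 1.11, SE 0.31, adjusted p 0.0359). These increases were near the threshold. The Tnfrsf9 call held in 0 of 6 leave-outs, that of Tnfrsf1b in 1 (without treated replicate 11) and that of Cd28 in 2 (without untreated replicate 1 or treated replicate 11).

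Among those that fell, Tnfrsf18 stood at 19.26, 16.42 and 13.96 CPM in treated replicates 2, 11 and 19, against 56.69, 40.74 and 28.38 CPM in untreated replicates 1, 5 and 18. Its log2 fold change was -1.39 (SE 0.24, adjusted p 0.0107). Cd40 stood at 14.58, 13.22 and 17.43 CPM treated, against 35.72, 48.93 and 33.93 CPM untreated (log2 -1.46, SE 0.18, adjusted p 0.00826). Every treated library was below every untreated one for both genes. Tnfrsf25, the lowest of the 10 in FPKM in this fraction, stood at 0.8502, 0.4005 and 1.058 CPM treated (20, 2 and 32 counts), against 6.869, 3.502 and 2.616 CPM untreated (log2 -2.40, SE 0.45, adjusted p 0.0125). The Cd40 call held in 6 of 6 leave-outs, that of Tnfrsf18 in 5 (lost without untreated replicate 5) and that of Tnfrsf25 in 4 (lost without untreated replicate 5 or treated replicate 2). The count called among all members depended on the fit: 2 of 10 with offsets for transcript GC content (Tnfrsf1b and Cd40; 3.69% of all genes), 2 by limma on log2(FPKM + 1) (Tnfrsf25 and Cd40; 2.13%), and 0 when all 18 libraries shared 1 estimate of spread (0.577% of all genes; Cd40 adjusted p 0.185). Transcript GC content of the members ran from 41.2% (Cd28) to 59.4% (Tnfrsf25). With 1 library left out the count was between 1 (without untreated replicate 5) and 5, and it was 2 without treated replicate 2 and 3 without untreated replicate 18 or treated replicate 19.

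Tnfrsf4, Cd27, Icos and Cd40lg were not called in CD3-CD8- cells, although with no filter on low counts Cd27 (adjusted p 0.00339) and Icos (adjusted p 0.0164) passed in edgeR, and Icos did without untreated replicate 1 (log2 1.17, adjusted p 0.0305). Cd27 stood at 124.6, 57.48 and 73.33 CPM in treated replicates 2, 11 and 19, against 60.3, 62.99 and 23.54 CPM in untreated replicates 1, 5 and 18 (log2 0.76, SE 0.39, adjusted p 0.184). Icos stood at 46.84, 50.47 and 34.43 CPM treated, against 45.7, 20.25 and 15.54 CPM untreated (log2 0.65, adjusted p 0.212). Both overlapped. Cd40lg averaged 9.538 ± 3.31 CPM treated and 13.42 ± 9.78 CPM untreated (log2 -0.50, adjusted p 0.466), and Tnfrsf4 5.211 ± 2.24 and 5.194 ± 2.23 CPM (log2 -0.09, adjusted p 0.892).

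**Figure D3:**
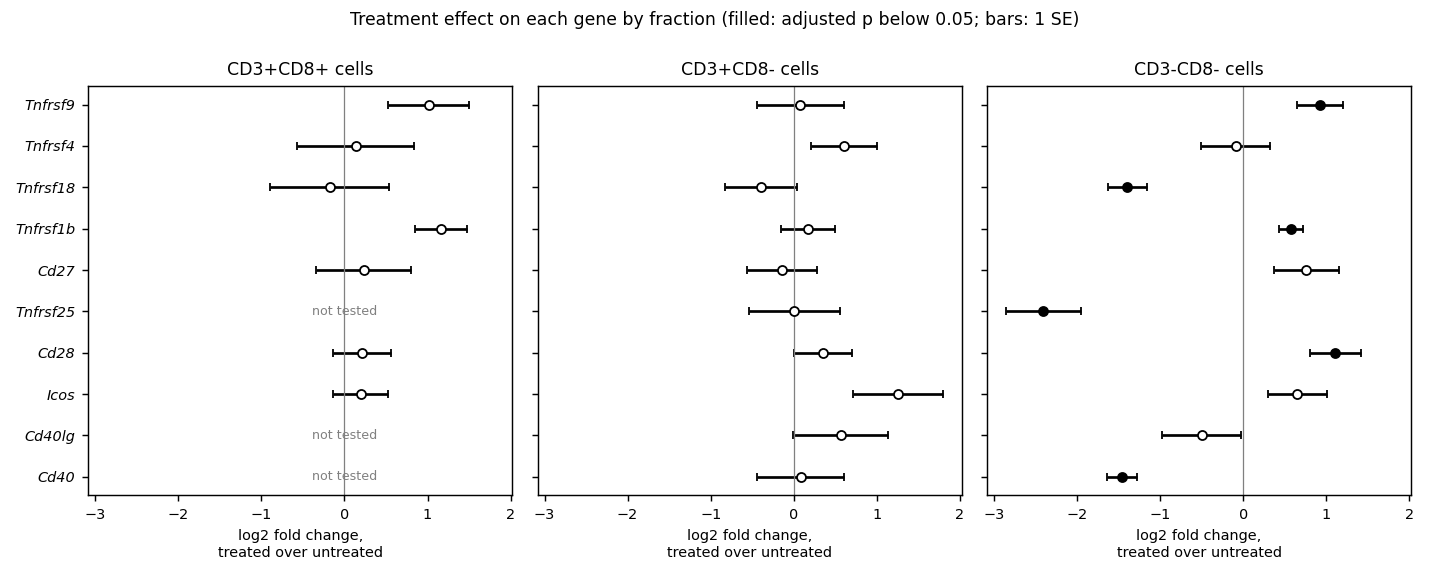
Log2 fold changes (points) with SE (bars) of the members in treated over untreated mice, by sorted fraction; filled points passed an adjusted p of 0.05 and members not tested are left out. Filled points occur in CD3-CD8- cells alone, with Tnfrsf9, Tnfrsf1b and Cd28 above 0 and Tnfrsf18, Tnfrsf25 and Cd40 below it, Tnfrsf25 lowest at -2.40.

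RefSeq start sites (GRCm38.p6) were found for 6 of the 10 members, all TNF receptors, and the windows of the 4 that were called in CD3-CD8- cells are shown because NF-kB is the shared output of the family. Each runs from 250 bases before a start to 50 after it, read 5′ to 3′ on the gene's strand. Capitals mark letters that match GGGNNNNNCC, a loose NF-kB (kappaB) motif, on either strand, with overlapping matches merged; 50.79% of 32851 such windows hold at least 1 match.
Tnfrsf9, second start, chr4:150927749-150928048, plus strand: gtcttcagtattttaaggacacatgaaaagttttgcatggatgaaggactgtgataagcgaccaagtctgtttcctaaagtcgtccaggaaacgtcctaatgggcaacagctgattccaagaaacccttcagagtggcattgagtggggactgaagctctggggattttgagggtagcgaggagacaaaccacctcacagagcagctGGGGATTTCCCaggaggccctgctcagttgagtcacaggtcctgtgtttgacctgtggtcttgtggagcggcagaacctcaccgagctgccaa
Tnfrsf1b, chr4:145246821-145247120, minus strand: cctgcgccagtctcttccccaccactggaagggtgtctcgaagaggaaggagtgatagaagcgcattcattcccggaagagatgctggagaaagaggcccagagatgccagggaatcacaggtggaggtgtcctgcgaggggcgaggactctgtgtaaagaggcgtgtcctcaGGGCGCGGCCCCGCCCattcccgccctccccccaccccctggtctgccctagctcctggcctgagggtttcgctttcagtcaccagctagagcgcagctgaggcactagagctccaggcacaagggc
Tnfrsf18, chr4:156026072-156026371, plus strand: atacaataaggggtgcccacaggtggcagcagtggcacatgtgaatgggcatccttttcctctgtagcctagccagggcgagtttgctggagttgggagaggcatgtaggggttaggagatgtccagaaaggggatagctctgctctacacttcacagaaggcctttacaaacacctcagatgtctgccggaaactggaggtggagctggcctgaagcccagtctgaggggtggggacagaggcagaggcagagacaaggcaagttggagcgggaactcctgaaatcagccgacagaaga
Tnfrsf25, first start, chr4:152115684-152115983, plus strand: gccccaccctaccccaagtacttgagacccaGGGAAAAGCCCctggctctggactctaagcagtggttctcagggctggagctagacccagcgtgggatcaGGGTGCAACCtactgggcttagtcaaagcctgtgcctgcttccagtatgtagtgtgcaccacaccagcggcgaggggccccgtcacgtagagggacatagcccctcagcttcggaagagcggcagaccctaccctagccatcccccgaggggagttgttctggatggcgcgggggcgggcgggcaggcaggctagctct

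The 2 overlapping matches in the second Tnfrsf9 window form GGGGATTTCCC, and the window also holds 1 match to the AP-1 motif TGANTCA (in 7.808% of all windows). The first Tnfrsf9 window held no kappaB match. Tnfrsf1b, which rose, and Tnfrsf25, which fell, each had 3 matches, while Tnfrsf18, which fell, had 0. Of the remaining windows, that of Tnfrsf4 had 0 matches, that of Cd27 had 2 and the second Tnfrsf25 window 3. GC content was 51.0% in the second Tnfrsf9 window, 62.7% for Tnfrsf1b, 55.3% for Tnfrsf18 and 63.3% for the first Tnfrsf25 window, beside a median of 52.67% over all windows.

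RNA of other cell types moved with treatment in CD3-CD8- cells. The counts of markers called stand beside 10.2% of all genes rising and 15.3% falling. The 10 T cell markers summed to 3354 to 5196 CPM in treated and 815.1 to 2087 CPM in untreated libraries, and 6 of 10 rose. The 10 B cell markers summed to 1473 to 2199 CPM treated and 2645 to 3553 CPM untreated; 9 of 10 fell and none was at 0. The 7 macrophage and Kupffer cell markers summed to 190.9 to 597.6 CPM and 423.6 to 1158 CPM, with 2 of 7 falling, and the 6 neutrophil markers to 573.7 to 19690 CPM and 119.1 to 719.8 CPM, with 3 rising. The 6 NK cell markers summed to 3053 to 4299 CPM treated and 1329 to 1801 CPM untreated, yet their median log2 fold change was -0.68: Gzma, the killer cell protease that T cells also make, rose, Klrb1c fell and the other 4 were below 0 and not called. Dendritic cell markers summed to 64.1 to 211.7 CPM and 107.3 to 159.8 CPM, with 0 of 6 called. The part of these shifts in the rise of Cd28, Tnfrsf9 and Tnfrsf1b and in the fall of Cd40 and Tnfrsf18 was not tested.

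Set against the CD3 chains, all 10 members had lower values in treated CD3-CD8- cells. Each member's CPM + 1 was divided by 100 CPM of the mean CD3 chain level of the same library. Cd28 then averaged 13.54 ± 1.0 treated and 26.25 ± 5.78 untreated, and Tnfrsf9 9.89 ± 2.72 and 21.03 ± 6.96, both opposite in direction to their CPM. Tnfrsf18 averaged 2.219 ± 0.382 and 23.38 ± 6.91, and Cd40 2.045 ± 0.397 and 24.13 ± 12.3. Groups did not overlap for any member, and log2 ratios of treated over untreated ran from -3.65 (Tnfrsf25) to -0.93 (Cd28), where the CD3 chains themselves stood at 2.12; each exact two-sided permutation p was 0.1, the smallest that 3 against 3 libraries allow. These ratios share 1 denominator per library, so the 10 directions are not independent of each other. The chains rose by more than any member (largest Cd28, log2 1.11), so lower ratios follow from this denominator. The common direction, the lack of overlap and the permutation p-values are therefore not read as results about the members. Cd3g was the largest part of the denominator, averaging 1576 CPM treated and 306.5 CPM untreated. Cd3d averaged 580.9 and 197.9 CPM and Cd3e 251.3 and 98.9 CPM. The size of the ratios thus rests largely on Cd3g, and ratios to single chains were not computed. The 10 T cell markers had a median log2 fold change of 1.03, and ratios to them were not computed. The share of all genes with lower ratios was not computed either.

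**Figure D4:**
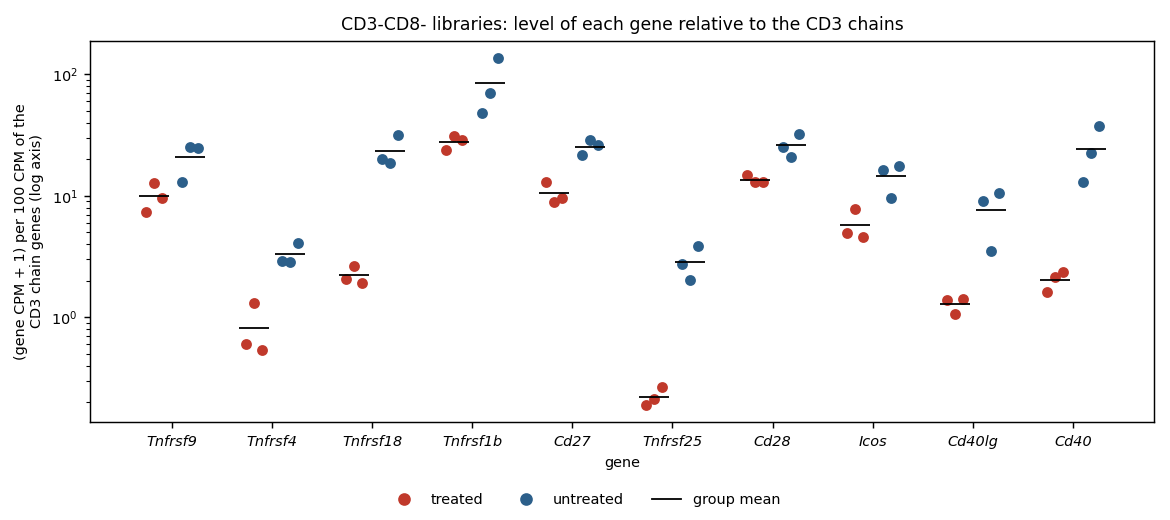
Member CPM + 1 per 100 CPM of CD3 chains (mean of Cd3e, Cd3d and Cd3g) in CD3-CD8- libraries, log axis, treated left of untreated; points are libraries and bars means. All 3 treated libraries lie below all 3 untreated ones for each of the 10 genes, with the widest gap for Tnfrsf25 (log2 -3.65). The CD3 chains themselves stood at log2 2.12 treated over untreated, above every member, so lower ratios follow from the denominator.

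In CD3+CD8+ cells no member passed the test for treatment, and Tnfrsf1b had the largest log2 fold change of the 7 members tested. It stood at 159.6, 166.8 and 235.4 CPM in treated replicates 11, 2 and 19, against 70.67, 97.42 and 66.48 CPM in untreated replicates 1, 5 and 18. All treated libraries were above all untreated ones, and the log2 fold change of 1.16 (SE 0.31) had an unadjusted p of 0.00415 and an adjusted p of 0.462. By edgeR 0 of 10654 genes passed (0.0%), with 624 (5.86%) below an unadjusted 0.05. DESeq2 called 98 genes (0.92%), limma voom with quality weights 197 (1.85%) and limma on FPKM 276 (2.53%). Tnfrsf1b was called by voom, at an adjusted p of 0.0499, and the fold change without the 2 ribosomal-rich untreated libraries was 0.94 (adjusted p 0.998), with the lone untreated library left assumed to vary like the treated ones. Tnfrsf9 stood at 87.54, 38.19 and 79.05 CPM treated, against 16.77, 54.37 and 17.97 CPM untreated (log2 1.01, SE 0.49, adjusted p 0.937). Untreated replicate 5, the only untreated library here that was not rich in ribosomal counts, was above treated replicate 2.

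Of the other members in CD3+CD8+ cells, Cd28 averaged 199.3 ± 77.8 CPM treated and 157.0 ± 36.8 CPM untreated, Icos 48.32 ± 13.2 and 38.14 ± 13.0 CPM, and Cd27 112.2 ± 45.4 and 87.61 ± 77.4 CPM, all overlapping. Tnfrsf18 averaged 13.6 ± 12.3 and 13.51 ± 11.6 CPM, and Tnfrsf4 1.808 ± 0.715 and 1.126 ± 1.09 CPM. Tnfrsf25, Cd40lg and Cd40 were too low to be tested there, at 1.044 ± 0.958, 1.061 ± 0.689 and 0.2846 ± 0.192 CPM treated against 2.312 ± 1.44, 6.04 ± 4.24 and 5.137 ± 8.02 CPM untreated. The median of the 7 tested members was 0.21, beside -0.03 for all genes. B cell markers summed to 23.61 to 33.08 CPM in treated and 28.84 to 1441 CPM in untreated libraries, macrophage markers to 34.26 to 52.62 and 17.33 to 465.4 CPM, and the CD3 chains averaged 752.3 ± 149 and 364.7 ± 189 CPM. NK cell markers summed to 1742 to 3510 and 379.7 to 907.4 CPM, though Gzma alone of the 5 tested was above 0. The part of these in the members' values was not tested. Per 100 CPM of CD3 chains, Tnfrsf1b averaged 26.63 ± 12.2 treated and 24.76 ± 9.79 untreated (exact permutation p 0.7), and Icos 6.487 ± 0.545 and 11.69 ± 3.41 (exact permutation p 0.1, the smallest possible).

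In CD3+CD8- cells no member passed either, and Icos had the largest difference. It stood at 322.0, 75.04 and 80.13 CPM in treated replicates 11, 2 and 19, against 64.04, 87.37 and 40.11 CPM in untreated replicates 5, 18 and 6. Treated replicate 11 alone was above the untreated range. The log2 fold change was 1.25 (SE 0.54) with an unadjusted p of 0.0431 and an adjusted p of 1.0, and it was 0.35 without treated replicate 11. By edgeR 0 of 11197 genes passed (0.0%), with 198 (1.77%) below an unadjusted 0.05, and DESeq2 called 2 genes (0.0179%), voom 0 (0.0%) and limma on FPKM 82 (0.703%). Tnfrsf4 averaged 24.66 ± 12.1 CPM treated and 15.8 ± 3.92 CPM untreated (log2 0.60), Cd40lg 45.91 ± 15.5 and 30.11 ± 21.2 CPM (log2 0.56, but 0.10 without untreated replicate 6, the library with Cd8a), and Cd28 223.2 ± 67.4 and 173.9 ± 51.4 CPM (log2 0.35). Tnfrsf18 averaged 22.2 ± 5.61 and 29.2 ± 17.4 CPM (log2 -0.39), and Tnfrsf9, Tnfrsf1b, Cd27, Tnfrsf25 and Cd40 lay between -0.14 and 0.17. Neutrophil markers summed to 10140 to 31130 CPM in treated and 2507 to 13770 CPM in untreated CD3+CD8- libraries, NK cell markers to 284.0 to 684.5 and 500.4 to 908.3 CPM, and Cd4 spanned 376.1 to 1029 and 100.9 to 419.4 CPM; their part in the members' values was not tested.

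No member's treatment effect differed between fractions after adjustment. In each of the 3 contrasts edgeR called 0 of 13181 genes (0.0%), while DESeq2 called 116 (0.88%), 1 (0.00759%) and 28 (0.212%) for CD3+CD8+ minus CD3+CD8-, CD3+CD8+ minus CD3-CD8- and CD3+CD8- minus CD3-CD8- cells. Of the 7 members that were also tested in CD3+CD8+ cells, 1 was below an unadjusted 0.05 in the first, beside 3.63% of all genes: Tnfrsf1b with a difference of 1.01 (SE 0.34, p 0.0092, adjusted p 0.753). Cd40lg and Cd40 stood at -2.73 (SE 1.18) and -3.04 (SE 1.16) there, but were too low in CD3+CD8+ cells for a test of treatment, entered this fit through the other fractions and ran from -3.757 to -1.826 and from -4.151 to -1.329 with 1 library left out, so nothing is read from them. In the second contrast 0 of the same 7 members were below an unadjusted 0.05, beside 3.91%. In the third Tnfrsf25 alone of the 10 was (2.43, SE 0.99, p 0.0257, edgeR adjusted p 0.977), beside 3.82%. The calls made in CD3-CD8- cells are therefore not shown to differ from the effects in either T cell fraction.

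The ligands of these receptors changed in both directions in CD3-CD8- cells. Of 17 TNF and B7 family ligands listed, 13 were tested, 4 rose and 4 fell, with a median of 0.28. These counts stand beside 10.2% of all genes rising and 15.3% falling in this fraction. Cd86, a CD28 ligand, averaged 78.5 ± 5.40 CPM in treated and 44.24 ± 6.20 CPM in untreated libraries (log2 0.74, SE 0.16, adjusted p 0.0242), in the fraction in which Cd28 rose. Cd80, the other CD28 ligand, averaged 4.484 ± 1.51 and 4.542 ± 0.703 CPM and was not called. Icosl, the ICOS ligand, fell, averaging 58.03 ± 14.3 CPM treated and 97.56 ± 17.7 CPM untreated (log2 -0.84, adjusted p 0.0344). Of the ligands of TNF receptor type II, Lta fell, averaging 2.171 ± 0.213 and 5.193 ± 0.480 CPM (log2 -1.35, adjusted p 0.0124), while Tnf averaged 5.901 ± 1.16 and 10.08 ± 6.94 CPM and was not called (log2 -0.79). The OX40 ligand Tnfsf4 averaged 3.657 ± 1.05 and 1.3 ± 0.698 CPM and just missed the threshold (log2 1.36, adjusted p 0.0502). The 4-1BB ligand Tnfsf9 averaged 1.878 ± 0.814 and 1.394 ± 0.505 CPM (log2 0.28). Cd70, Tnfsf15 and Tnfsf18, the ligands of CD27, DR3 and GITR, averaged at most 0.3788 CPM in any group of CD3-CD8- cells and were not tested.

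**Figure D5:**
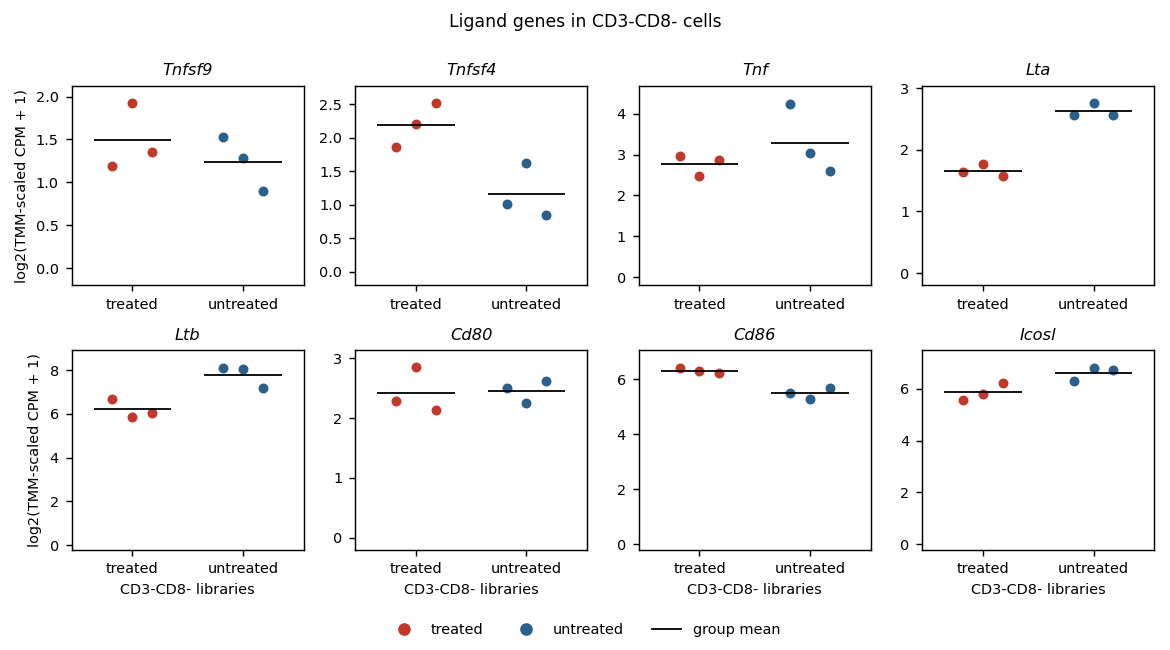
CPM (log axis, CPM + 1) of 8 TNF and B7 family ligands in CD3-CD8- libraries, treated left of untreated; points are libraries and bars means. Treated libraries lie above untreated ones for Cd86 (78.5 against 44.24 CPM on average) and below them for Ltb, Lta and Icosl.

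The ligand changes of smallest adjusted p were those of ligands of other receptors. Ltb, which encodes lymphotoxin beta, fell to 74.92 ± 24.2 CPM in CD3-CD8- cells of treated mice, against 226.1 ± 70.2 CPM in those of untreated mice (log2 -1.64, SE 0.29, adjusted p 0.0112). Tnfsf13b, which encodes the B cell survival factor BAFF, rose by 1.66 (SE 0.30, adjusted p 0.0119), and Fasl, the death ligand, averaged 182.7 ± 59.7 and 47.63 ± 21.4 CPM (log2 1.89, SE 0.35, adjusted p 0.0123). In CD3+CD8+ cells 0 of 12 tested ligands passed and 4 were below an unadjusted 0.05, beside 0.0% and 5.86% of all genes. Fasl had the smallest p at 152.1 ± 18.3 CPM treated and 48.82 ± 8.53 CPM untreated (log2 1.52, p 0.000217, adjusted p 0.273 by edgeR), and Lta stood at -2.31. In CD3+CD8- cells 0 of 12 passed and 0 were below an unadjusted 0.05; Tnfsf8 and Tnfsf10 had the smallest p, at 1.29 and 0.57.

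Most genes of the NF-kB pathway fell in CD3-CD8- cells, and other signalling genes changed in both directions. Of 13 NF-kB genes 8 fell and 1 rose (median -0.67): Nfkb2, which encodes the p100 precursor of the noncanonical pathway, stood at -1.88 (SE 0.20, adjusted p 0.00732), Map3k14, which encodes its kinase NIK, at -1.56 (SE 0.19, adjusted p 0.00826), and its partner Relb at -1.26 (SE 0.18, adjusted p 0.00909). Of 14 TRAF adaptors and regulators 3 rose and 2 fell (median -0.18), among them Traf4 at -1.32 (SE 0.20, adjusted p 0.00964), Tank, a TRAF binding protein, at 0.94 (SE 0.16, adjusted p 0.0108) and Tnip1, an NF-kB inhibitor, at -1.28 (SE 0.24, adjusted p 0.0127). Of 19 genes of signalling close to CD28, 3 rose and 5 fell (median -0.20). Pik3r5, a PI3-kinase subunit, stood at -1.08 (SE 0.17, adjusted p 0.00953), and the kinase Akt1 at -0.72 (SE 0.12, adjusted p 0.0107). Of 17 survival and activation genes 3 rose and 4 fell (median -0.14), with the survival genes Bcl2l1 at -0.91 and Bcl2a1d at 1.20 and the growth regulator Myc at -1.27 (adjusted p 0.0130, 0.0144 and 0.0186). These counts stand beside 10.2% of genes rising and 15.3% falling. Genes outside the 10 members were not rerun under other settings. Over all genes the calls in this fraction went from 3522 to 508 with GC offsets and 76 with all 18 libraries in 1 fit. B cell markers fell in the same libraries, and the part of cell composition in these changes was not tested.

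Of 16 other TNF receptors in CD3-CD8- cells 0 rose and 4 fell, with a median of -0.63: Tnfrsf13c, the BAFF receptor of B cells, at -0.99 (SE 0.18, adjusted p 0.0126), Tnfrsf22 at -1.37 (adjusted p 0.0234), Tnfrsf26 at -0.58 (adjusted p 0.0436), and Relt. Here too 10.2% of all genes rose and 15.3% fell. Of the 3 inhibitory relatives of CD28, Ctla4, which competes for CD80 and CD86, rose by 1.60 (SE 0.49, adjusted p 0.0482), while Pdcd1 stood at 2.22 (adjusted p 0.0563) and Btla at -0.16. B cell markers fell in the same libraries, and their part in the fall of Tnfrsf13c was not tested. In CD3+CD8+ and CD3+CD8- cells no gene of these 7 lists passed. The smallest p-values in CD3+CD8+ cells outside the ligands were those of Nr4a2 (log2 1.69) and Myc (-1.22) among survival and activation genes, Fyn (1.03) and Cd2ap (-1.21) near CD28, Tnfrsf13c (-2.26) and Tnfrsf13b (-1.0) among TNF receptors, Pdcd1 (1.77) and Btla (-1.22) among inhibitors, Nfkbia (-0.67) and Nfkb2 (-0.95) in NF-kB, and Birc3 (-0.53) and Traf6 (-0.32) among adaptors. In CD3+CD8- cells they were Myc (-1.16), Irf4 (0.87), Pik3r5 (-0.98), Themis (0.47), Relt (-0.67), Tnfrsf8 (0.80), Ctla4 (0.65), Pdcd1 (1.06), Nfkb2 (-0.69), Relb (-0.55), Traf4 (-1.21) and Tnip1 (-0.58).

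Genes with the most similar profile were sought for each member over the 6 group means. Likeness was measured as the root mean square difference of centred log2 CPM, over 7581 genes whose log2 CPM averaged 3 or more. Cd28 lay nearest to Pde4d (0.171), Camk4 (0.215) and Bcl11b (0.222), where the median gene lay at 0.80. Icos lay nearest to Phactr2 (0.114), Nrp1 (0.161) and Adpgk (0.206), and Tnfrsf9 to Gimap7 (0.094), Cetn2 (0.126) and Nkg7 (0.128), beside medians of 0.79 and 0.58. Tnfrsf1b lay nearest to Bhlhe40 (0.099), Fgl2 (0.131) and Fam129a (0.139), Tnfrsf18 to Rin3 (0.094), Tkt (0.114) and Nkiras2 (0.146), and Cd27 to Eif5a2 (0.068), Leprotl1 (0.071) and Gnptab (0.071). The other 4 members lay farther from their nearest genes, and also from the median gene, at 1.7 for Tnfrsf4, 1.75 for Cd40lg, 1.16 for Tnfrsf25 and 2.14 for Cd40. Tnfrsf4 lay at 0.342 from Pygl, 0.412 from Itgam and 0.457 from Fpr1, Cd40lg at 0.41 from Gcnt2, 0.413 from Cd300lb and 0.417 from Cpd, Tnfrsf25 at 0.407 from Aqp9, 0.438 from Il12rb2 and 0.447 from Rhob, and Cd40 at 0.443 from Klrb1b, 0.553 from Ncr1 and 0.578 from March1. With 6 points shared by all genes these distances are descriptions, with no test.

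Several members are neighbours in the genome (GRCm38 positions from the deposited gene table). Tnfrsf4 (chr4:156013843-156016612) and Tnfrsf18 (chr4:156026164-156028895) lie 9551 bases apart on the plus strand of chromosome 4, which also carries Tnfrsf1b (chr4:145213463-145246870, minus strand), Tnfrsf9 (chr4:150914562-150946102, plus strand) and Tnfrsf25 (chr4:152115934-152120119, plus strand). The near neighbours Tnfrsf4 and Tnfrsf18 stood at treatment log2 fold changes of -0.09 and -1.39 in CD3-CD8- cells, and the difference between the genes was not tested. Cd28 (chr1:60716800-60773359) and Icos (chr1:60977927-61000320) flank Ctla4 on the plus strand of chromosome 1, at 113640 and 62094 bases from it, and the 3 had log2 fold changes of 1.11, 0.65 and 1.60 there. Cd27 lies at chr6:125232622-125237010 on the minus strand, Cd40lg at chrX:57212143-57224042 and Cd40 at chr2:165055627-165072948, both on the plus strand. Tnfrsf9 overlaps Camta1 over 28781 bases, Tnfrsf18 overlaps Gm16008 over its whole 2732 bases and Cd27 overlaps Vamp1 over 4389 bases, each on the opposite strand, and whether counting used strand is not stated. Icos overlaps Gm37039 over 2485 bases and Cd27 overlaps Mir8113 over 129 bases on the same strand, which strand cannot tell apart. Reads of these pairs may be shared, and the levels of the 4 members carry that uncertainty.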

How the data were processed

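RNA was sequenced from 18 libraries of sorted liver leukocytes, 3 in each of 6 groups; groups and replicate numbers follow the titles and treatment labels, except that the title of treated CD3+CD8- replicate 11 repeats a digit of its number, which was read from the matching column name, and 22 other library columns of the table were not used. Titles also carry letter codes that the labels do not explain. The treated replicate 19 libraries have PL and the other treated ones P, and untreated CD3+CD8- replicate 6 has CV and the other untreated ones C. The authors deposited whole-number counts per gene for 48440 identifiers, and a table of FPKM that also holds each gene's symbol and locus. Tools listed in the submitters' processing notes, with no role given, are Cufflinks 2.2.1, DESeq2 3.20, HTSeq 0.13.5 and Trim Galore 0.6.7; neither aligner nor build is given in the sources used here. Positions are those of the deposited FPKM table with 1 added to the start; 40446 of 40459 shared identifiers then had the locus of GENCODE M21 (GRCm38). That table gave 48242 symbols and a reference list 194 more.

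Treated and untreated libraries of each fraction were compared with edgeR 4.0.16 (R 4.3.3): filterByExpr, TMM scaling, the quasi-likelihood F-test and Benjamini-Hochberg adjustment over all genes tested, called below an adjusted p of 0.05; SE is the size of the log2 fold change over the square root of F. Contrasts between fractions and differences in treatment effect came from 1 edgeR fit of all 18 libraries as 6 groups. The fit of treatment in CD3-CD8- cells was tested on simulated data with known changes, and the other fits were not. CPM uses TMM scaling over all 18 libraries. Ratios to the CD3 chains took CPM + 1, so that libraries at 0 stay defined. Library totals ran from 1829155 to 28233682 counts, but counts left beside the ribosomal loci and Lars2, down to 495770, set the precision of low genes. Limits for a count of 0 take 3 counts and cover counting error only. The 10 members, the gene lists and the rule for named genes (all members, their 3 nearest profiles, up to 3 called genes of each pathway list or otherwise the 2 of smallest p, the members' ligands, and the sort markers) were chosen with earlier results of these data known; Relt, Klrb1c and Gzma were added to complete small counts, and 1 gene that the rule names is not reported here. Alternatives were no filter and a stricter one (5 CPM in at least 3 libraries), DESeq2 1.42.0, limma 3.58.1 voom with quality weights, limma on log2(FPKM + 1) above a mean of 1 FPKM, the lane as a covariate, offsets for transcript GC content, all 18 libraries in 1 fit or the compared libraries alone, no ribosomal-rich libraries, a replicate block, and leaving out each library. Exact permutation tests used scipy 1.17.1, and promoter windows came from RefSeq (GRCm38.p6).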

Additional observations from a re-analysis of the deposited data

How the results depend on the processing

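Of the members' log2 values, 418 of 507 under another setting and 313 of 378 with 1 library left out kept their direction and side of the threshold; 25 and 42 lost the threshold, 46 and 4 gained it, and 18 and 19 changed sign. Where a value changed, the cause was not tested. Counts of members called that moved were, for treatment, 1 with voom in CD3+CD8+ cells, and 2 with FPKM, 2 with GC offsets and 0 with all 18 libraries in CD3-CD8- cells (1 to 5 with a library left out). For treated CD3+CD8+ against CD3+CD8- cells they were 5 each with no filter, DESeq2, GC offsets and the replicate block. For treated CD3+CD8+ against CD3-CD8- cells they were 1 to 2 in leave-outs. For treated CD3+CD8- against CD3-CD8- cells they were 6 with no filter, 5 with DESeq2, 5 with the replicate block, 4 with GC offsets, 4 with only the compared libraries and 0 to 1 in leave-outs. In untreated mice they were 0 without ribosomal-rich libraries and 0 with only the compared libraries for CD3+CD8+ against CD3+CD8- cells (0 to 3 in leave-outs); 4 with no filter, 1 without ribosomal-rich libraries, 0 with only the compared libraries and 0 to 2 in leave-outs for CD3+CD8+ against CD3-CD8- cells; and 4 with no filter, 5 with the replicate block, 4 with GC offsets and 0 to 2 in leave-outs for CD3+CD8- against CD3-CD8- cells. The difference CD3+CD8+ minus CD3+CD8- had 1 with no filter. Libraries share only a number: 14 of 16 same-numbered pairs across fractions had correlated deviations above 0.1 (lowest -0.044, median 0.349), against 6 of 38 others. Under the replicate block untreated Cd40lg in CD3+CD8+ against CD3+CD8- cells was called (-4.105, adjusted p 0.00205), as was Cd28 in treated CD3+CD8- against CD3-CD8- cells (1.137, adjusted p 0.0259).

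Among the values run, the signs that turned were those of members that were not called. In CD3+CD8+ cells these were Tnfrsf4 (voom -0.285, no ribosomal-rich libraries -0.227, leave-outs -0.279 to 1.307), Tnfrsf18 (FPKM 1.338, leave-outs -1.374 to 0.919) and Cd27 (no ribosomal-rich libraries -0.634, leave-outs -0.185 to 1.222). In CD3+CD8- cells FPKM gave -0.31 for Tnfrsf9, -0.309 for Tnfrsf4, -0.53 for Tnfrsf1b, -0.41 for Tnfrsf25, -0.369 for Cd28 and -0.047 for Cd40; GC offsets gave 0.009 for Cd27, voom -0.048 for Tnfrsf25 and -0.366 for Cd40, the lane -0.338 for Tnfrsf25, and leaving out the ribosomal-rich library -0.031 for Cd40. Leave-outs there ran from -0.334 to 0.714 for Tnfrsf9, -0.683 to 0.176 for Tnfrsf18, -0.462 to 0.257 for Cd27, -0.428 to 0.371 for Tnfrsf25 and -0.171 to 0.573 for Cd40. In CD3-CD8- cells Tnfrsf4 had 0.005 with no filter, 0.483 with GC offsets and -0.422 to 0.208 in leave-outs, and Cd40lg 0.166 with voom and -0.858 to 0.187 in leave-outs. Over all genes, treatment calls in CD3-CD8- cells (3522) were 5479 with DESeq2, 6399 with voom, 251 with FPKM, 508 with GC offsets, 76 with all 18 libraries, 239 without untreated replicate 5, 910 without treated replicate 2 and 1185 without treated replicate 19. In CD3+CD8+ cells (0) they were 380 with no filter, 98 with DESeq2, 197 with voom, 276 with FPKM, 15 with all 18 libraries and 180 without untreated replicate 5, and in CD3+CD8- cells (0) 195 with no filter, 2 with DESeq2 and 82 with FPKM.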
